A study of Mus musculus with 28 samples.

Results

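Rods of the rd1 mouse at postnatal day 8 (P8) were placed against wild-type (WT) rods of postnatal days 6 and 10 (P6 and P10), to ask which genes stood at the younger level, at the older level or outside both. Of the 28 RNA-seq libraries of the series, 12 set this comparison: P8 rd1 replicates 1 to 4, P6 WT replicates 1 to 4 and P10 WT replicates 2 to 5. The P8 WT libraries, replicates 1 and 2, served as the same-age reference. The WT mice carried TgNrlp-GFP, a green fluorescent protein transgene under the promoter of Nrl, and the rd1 mice carried the same transgene together with Pde6b rd1/rd1, so every group shares the transgene. Retinas were dissociated with papain and GFP-positive cells were sorted, so a group is the population in which the Nrl promoter was active, whatever other cells came through the gate. The labels do not say how many animals a library holds or of which sex, so the p-values measure the spread between these samples. In bulk samples such as these, fewer cells of a type and less RNA per cell cannot be told apart.

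Rods are the dim-light photoreceptors of the retina. They are born around birth in the mouse, and over the following days they switch on the phototransduction cascade, build an outer segment of stacked membrane discs and form ribbon synapses onto bipolar cells. In that cascade the visual pigment, once struck by light, activates the G protein transducin, and transducin releases the cGMP phosphodiesterase from its inhibitory subunit, so that cGMP falls and the cGMP-gated channel closes. The rd1 allele removes the function of Pde6b, the beta subunit of that phosphodiesterase, and rods that carry it degenerate early.

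Library totals ran from 11103460 to 13839911 counts in P8 rd1, 12265260 to 13636691 in P6 WT, 11942678 to 14995501 in P10 WT and 12712570 to 13187377 in P8 WT. Summed over the 12 rod markers, rod transcripts reached 21100 to 24000 CPM (counts scaled to the library total, before TMM scaling) in P8 rd1, 11200 to 16200 in P6 WT, 24800 to 40200 in P8 WT and 30600 to 49700 in P10 WT. No rod marker was at 0 in these libraries. P6 WT replicate 1 and P10 WT replicate 5 stood apart from their groups. In the former the 10 most abundant genes took 11.5% of counts, against 3.81% to 6.73% in the other 11 libraries, and immediate early genes summed to 1900 CPM against 771 to 882 in the other P6 WT libraries. In P10 WT replicate 5 immediate early genes summed to 2050 CPM against 527 to 619, and bipolar cell markers to 459 CPM against 1580 to 2450. Xist, transcribed from the inactive X, ran from 6.73 to 4620 CPM in P6 WT, 3.43 to 4340 in P8 rd1 and 0.842 to 1610 in P10 WT, and was 3130 and 3780 CPM in P8 WT. Ddx3y, a Y-linked gene, ran from 0.544 to 96, 0.488 to 107 and 32.2 to 86.8 CPM in the former 3 groups and was 0.162 and 0.419 CPM in P8 WT. In P6 WT replicates 1 and 3, P10 WT replicate 5 and P8 rd1 replicates 2 and 3, both transcripts were present. There Xist was at least 948 CPM and Ddx3y at least 28.3 CPM, so these libraries appear to hold RNA of both sexes. The sex of the animals thus differed between libraries, its part in the results was not tested, and all counts of genes cover autosomal genes only.

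Pde6b, the gene that carries the rd1 allele (ENSMUSG00000029491, chromosome 5, 108388391 to 108432397, GRCm38), rose with age in WT and was low in rd1. Its level was 659, 660, 797 and 763 CPM in the P8 rd1 libraries and 1130, 1640, 886 and 1510 CPM in P6 WT. It was 2580, 2730, 2840 and 4140 CPM in P10 WT and 3190 and 2200 CPM in P8 WT. Every P8 rd1 library was below every WT library of any of the 3 ages. The log2 fold change of P8 rd1 was -2.14 ± 0.23 (SE) over P10 WT (adjusted p = 0.000105) and -0.80 ± 0.23 over P6 WT (adjusted p = 0.0486), which put Pde6b outside both ages on the low side. The P6 comparison was marginal, and its call was lost on leaving out any of 9 of the 12 libraries, with an adjusted p of up to 0.126 (log2 fold change -0.77, without P8 rd1 replicate 2).

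Across 16145 autosomal genes, P8 rd1 rods differed from P10 WT rods in more genes than from P6 WT rods. At an adjusted p of 0.05, 1456 genes (9.02%) differed between P8 rd1 and P6 WT, 851 higher (5.27%) and 605 lower (3.75%) in rd1. Between P8 rd1 and P10 WT 2548 genes (15.8%) differed, 1259 higher (7.8%) and 1289 lower (7.98%). The WT ages themselves differed in 4417 genes (27.4%). These 3 comparisons share libraries and came from 1 fit. The first count fell to 822 without P6 WT replicate 3, 906 without P8 rd1 replicate 2, 863 without P8 rd1 replicate 3 and 715 without P8 rd1 replicate 4. The second fell to 1504 without P10 WT replicate 4, 1381 without P8 rd1 replicate 2 and 1586 without P8 rd1 replicate 4. The counts were 1888 and 3016 without both libraries that stand apart.

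Genes that moved in normal development formed the scale for the placement. Age genes were those that differed between P10 WT and P6 WT by at least 1 on the log2 scale. There were 2095 of them (13%), 1038 that rose and 1057 that fell with age. A gene was counted at the P6 level when P8 rd1 differed from P10 WT and not from P6 WT, at the P10 level in the reverse case, and between when rd1 differed from both in opposite directions. It was counted outside when rd1 differed from both in the same direction, and unresolved when it differed from neither.

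The largest resolved class stood at the P6 level, with 688 of 2095 age genes (32.8%, or 4.26% of all genes tested), followed by 371 at the P10 level (17.7%, or 2.3%), 215 between (10.3%, or 1.33%) and 36 outside (1.72%, or 0.223%). The other 785 (37.5%) were unresolved. Genes that rise with age were at the P6 level in 380 of 1038 cases (36.6%), at the P10 level in 179 (17.2%) between in 169 (16.3%) and outside in 11 (1.06%). Genes that fall with age were at the P6 level in 308 of 1057 cases (29.1%), at the P10 level in 192 (18.2%) between in 46 (4.35%) and outside in 25 (2.37%), and 486 of them (46%) were unresolved. A difference that missed the threshold does not put a gene at a level. The 95% interval of the P8 rd1 difference from P6 WT lay within 1 log2 unit of 0 for 342 of the 688 genes at the P6 level (49.7%), with a median absolute log2 fold change of 0.4. The interval from P10 WT did so for 151 of the 371 genes at the P10 level (40.7%), with a median of 0.43. Without both libraries that stand apart, the classes held 638, 402, 300, 44 and 473 genes in the same order. The count at the P10 level was 241 without P6 WT replicate 1, 206 without P6 WT replicate 3, 212 without P8 rd1 replicate 4 and 561 without P10 WT replicate 5. The count between fell to 111, 143, 115, 115, 112, 88 and 90 on leaving out, in turn, P6 WT replicate 3, P10 WT replicates 3 and 4 and P8 rd1 replicates 1, 2, 3 and 4. Without P10 WT replicate 4, 23 age genes were outside, and without P8 rd1 replicate 2, 1193 were unresolved.

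On a scale where 0 is the P6 WT mean and 1 the P10 WT mean of each gene's log2 CPM, the median age gene of P8 rd1 stood at 0.47, with an interquartile range of 0.27 to 0.65. The P8 rd1 libraries had median positions of 0.43, 0.40, 0.47 and 0.52 in replicates 1 to 4. The P8 WT libraries stood at 0.93 and 0.52, so they differed from each other by more than the rd1 libraries did, and the lower of them was level with the highest rd1 library. The P6 WT libraries lay between -0.16 and 0.14 and the P10 WT libraries between 0.76 and 1.3, and they set the scale. Placed on the same scale, the median age gene of P8 WT stood at 0.72 over its 2 libraries. In the other groups the median age gene stood at -0.25 (P2 WT), -0.29 (P4 WT), -0.31 (P2 rd1), -0.22 (P4 rd1), 0.12 (P6 rd1) and 0.86 (P10 rd1). Of the age genes, 1280 (61.1%) had a P8 rd1 position between 0.25 and 0.75, 300 (14.3%) between 0 and 0.25 and 238 (11.4%) between 0.75 and 1, while 176 (8.4%) lay below 0 and 101 (4.82%) above 1. Positions are a description without a test, since genes are not replicates.

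**Figure D1:**
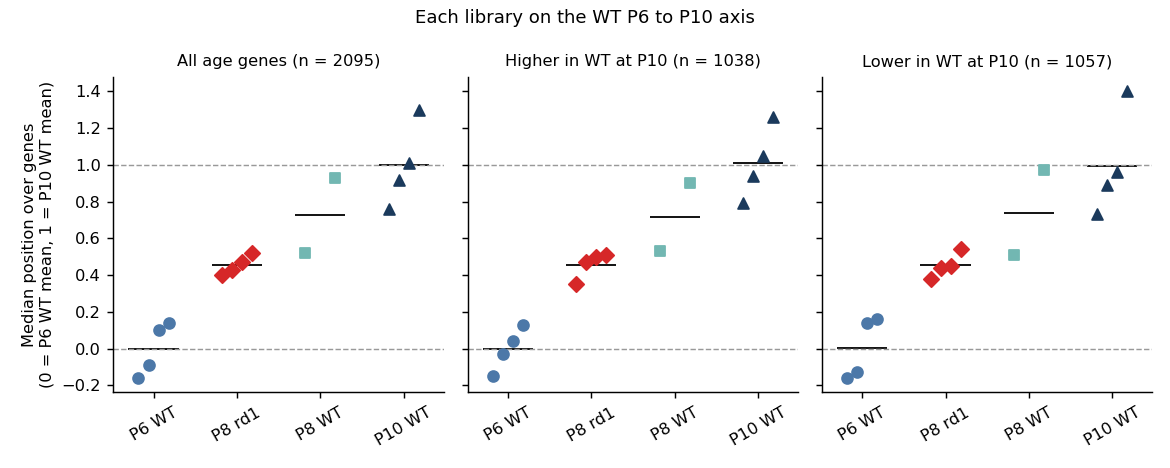
Median position of each library over all 2095 age genes (left), the 1038 that rise (middle) and the 1057 that fall with age in WT (right), on a scale from the P6 WT mean (0) to the P10 WT mean (1), with points sorted within a group and a line at the group's mean. Over all age genes the P8 rd1 libraries lie between 0.40 and 0.52, and the P8 WT libraries at 0.52 and 0.93.

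**Figure D2:**
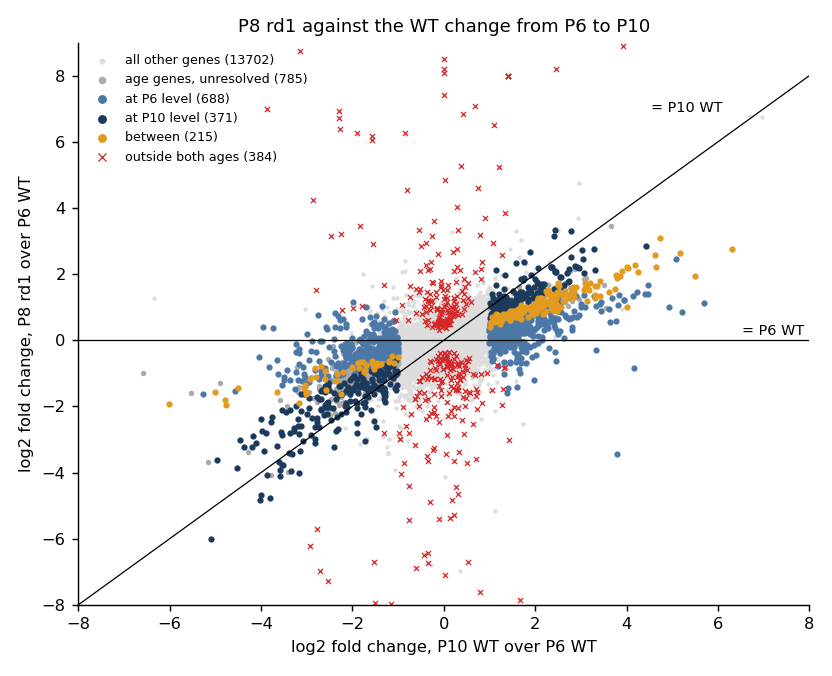
Each point is an autosomal gene, with the log2 fold change of P10 WT over P6 WT on the horizontal axis and of P8 rd1 over P6 WT on the vertical axis, coloured by class. The flat line marks the P6 WT level and the diagonal the P10 WT level, genes between the ages lie between those lines, and 21 genes lie beyond the frame.

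The phototransduction genes were mostly caught between the WT ages. Of 23 tested members, P8 rd1 was higher than P6 WT in 14 and lower in 1, and it was lower than P10 WT in 19 and higher in 0. The median log2 fold changes were 0.90 and -1.09, against -0.004 and 0.012 over all autosomal genes. Among all genes tested, 5.27% were higher and 3.75% lower than P6 WT, and 7.98% were lower and 7.8% higher than P10 WT. Of all age genes that rise, 16.3% were between, 36.6% at the P6 level and 17.2% at the P10 level. Of the 20 members that were age genes, 13 were between, 4 at the P6 level, 1 at the P10 level, 1 outside and 1 unresolved, and their median position was 0.51 (0.46 to 0.58 by rd1 library, against 1.0 and 0.56 in the P8 WT libraries). Without both libraries that stand apart, 17 were higher and 1 lower than P6 WT, and 17 were lower than P10 WT. The count above P6 WT was 9 without P6 WT replicate 3, and that below P10 WT was 12 without P8 rd1 replicate 2 and 12 without P8 rd1 replicate 3. Leaving out at least 1 library ended the P6 WT call of 6 members (Gnb1, Gnb5, Grk1, Pde6b, Rgs9 and Sag) and the P10 WT call of 7, among them Cnga1, Gngt1, Guca1a, Pde6g, Rgs9 and Sag. The highest adjusted p was 0.144, for Sag over P6 WT without P8 rd1 replicate 4 (log2 fold change 0.79).

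Promoters of 2 such genes are shown because TAATCC, the core that the rod factors Crx and Otx2 bind, is spelled out in them close to the start. Each is the 250 bases before the RefSeq start (GRCm38.p6), 5′ to 3′ on the gene's strand, with TAATCC or its reverse complement GGATTA in capitals. Sag, at chr1:87803430-87803679 on the plus strand, encodes arrestin, and Cngb1, at chr8:95306586-95306835 on the minus strand, the second subunit of the cGMP-gated channel.
Sag: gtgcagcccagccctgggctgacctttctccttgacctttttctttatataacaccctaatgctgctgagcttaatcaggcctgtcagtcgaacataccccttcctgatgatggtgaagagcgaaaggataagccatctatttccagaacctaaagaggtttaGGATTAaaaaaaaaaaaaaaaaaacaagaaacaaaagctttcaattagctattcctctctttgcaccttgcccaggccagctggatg
Cngb1: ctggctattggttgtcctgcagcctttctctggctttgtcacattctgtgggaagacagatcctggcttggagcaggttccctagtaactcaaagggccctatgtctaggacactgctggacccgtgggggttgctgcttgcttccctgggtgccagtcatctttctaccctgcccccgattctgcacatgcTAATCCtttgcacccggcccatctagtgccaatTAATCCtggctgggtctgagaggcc
TAATCC on either strand is present in 594 (5.83%) of the 10192 RefSeq promoters of tested genes, taken from 250 bases before to 50 after the start. Only 63% of the tested genes matched a promoter, so its share was not compared between classes. A match describes the sequence and is not evidence of binding.

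Gnat1, the alpha subunit of rod transducin, was between the ages. It was 178, 165, 180 and 236 CPM in P8 rd1, 60.2, 38.9, 33.2 and 70.5 CPM in P6 WT and 838, 1510, 2420 and 3740 CPM in P10 WT. The log2 fold change was 1.94 ± 0.40 over P6 WT (adjusted p = 0.0114) and -3.55 ± 0.40 over P10 WT (adjusted p = 0.00022), a position of 0.37. The P8 WT libraries were 1160 and 243 CPM, which differ from each other by more than the lower one differs from rd1. The partner subunits of transducin took other classes. Gnb1, the beta subunit, was counted at the P10 level, with log2 fold changes of 0.83 over P6 WT and -0.56 over P10 WT. Gngt1, the gamma subunit, was counted at the P6 level (0.83 and -1.18). Both fell near the threshold. The 95% interval of Gngt1 over P6 WT ran from 0.18 to 1.49, and that of Gnb1 over P10 WT from -0.99 to -0.12.

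The other phosphodiesterase subunits did not follow Pde6b below the WT range. Pde6a, the catalytic alpha subunit, was between the ages at 278, 253, 298 and 367 CPM in P8 rd1. In P6 WT it was 96.5, 70.6, 39.9 and 85.9 CPM and in P10 WT 870, 1080, 1380 and 1970 CPM. The log2 fold changes were 2.06 ± 0.31 (adjusted p = 0.00164) and -2.20 ± 0.31 (adjusted p = 0.000783). Pde6g, the inhibitory gamma subunit, had a P8 rd1 level of 867 to 1130 CPM against 334 to 809 in P6 WT and 1420 to 2340 in P10 WT, and was counted at the P6 level with a marginal call (0.90, adjusted p = 0.0667, and -0.93, adjusted p = 0.0404). Of the channel and its exchanger, Slc24a1, the sodium, calcium and potassium exchanger of the outer segment, was between at 132, 106, 125 and 147 CPM, with log2 fold changes of 2.63 ± 0.35 and -2.55 ± 0.34. The channel subunit Cnga1 was between (1.63 and -0.91) and Cngb1 was unresolved (0.54 and -0.55).

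The genes of recovery and calcium feedback split. Grk1, the kinase that starts pigment shut-off (1.2 and -1.42), Sag (0.86 and -0.87), Rcvrn, the calcium sensor recoverin (1.80 and -1.62), and the guanylate cyclase gene Gucy2e (1.16 and -1.09) were between. So were Rgs9, Gnb5 and Rgs9bp, the complex that switches transducin off, at 0.94, 0.88 and 1.49 over P6 WT and -0.68, -1.02 and -1.18 over P10 WT. Guca1b, a calcium-dependent activator of the guanylate cyclases, stayed near its P6 level instead. It was 11.5, 6.42, 8.87 and 9.1 CPM in P8 rd1, 6.35, 4.12, 3.84 and 6.18 CPM in P6 WT and 81.4, 116, 202 and 313 CPM in P10 WT. Its log2 fold change over P10 WT was -4.38 ± 0.38 (adjusted p = 3.07e-05), and over P6 WT it was 0.84 ± 0.41, which did not pass (95% interval -0.05 to 1.73, adjusted p = 0.233). The P8 WT libraries, at 95.1 and 17.2 CPM, were both above the rd1 libraries, with a log2 fold change of -2.76 ± 0.61 (adjusted p = 0.0213). Its neighbour gene Guca1a was not an age gene and was lower than P10 WT alone (-1.02, adjusted p = 0.0392).

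Kcnv2, a potassium channel subunit gene that shapes the rod voltage response, also stood at the P6 level. It was 292, 324, 329 and 341 CPM in P8 rd1, 265, 269, 187 and 346 CPM in P6 WT and 678, 857, 926 and 1010 CPM in P10 WT, with 990 and 595 CPM in P8 WT. The log2 fold change was -1.47 ± 0.19 over P10 WT (adjusted p = 0.000423), -1.37 ± 0.27 over P8 WT (adjusted p = 0.00998) and 0.31 ± 0.19 over P6 WT (95% interval -0.10 to 0.73). Pdc, the transducin-binding phosducin, passed neither test (0.39 and -0.26). Against P8 WT itself, 510 of 17110 genes passed (2.98%), 157 higher (0.918%) and 353 lower (2.06%), and of the 23 phototransduction members Guca1b, Kcnv2 and Pde6b were lower and 0 were higher. That count rests on 2 WT libraries and was 135 without P8 WT replicate 1, 315 without P8 WT replicate 2, and 282, 310 and 274 without P8 rd1 replicates 2, 3 and 4.

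**Figure D3:**
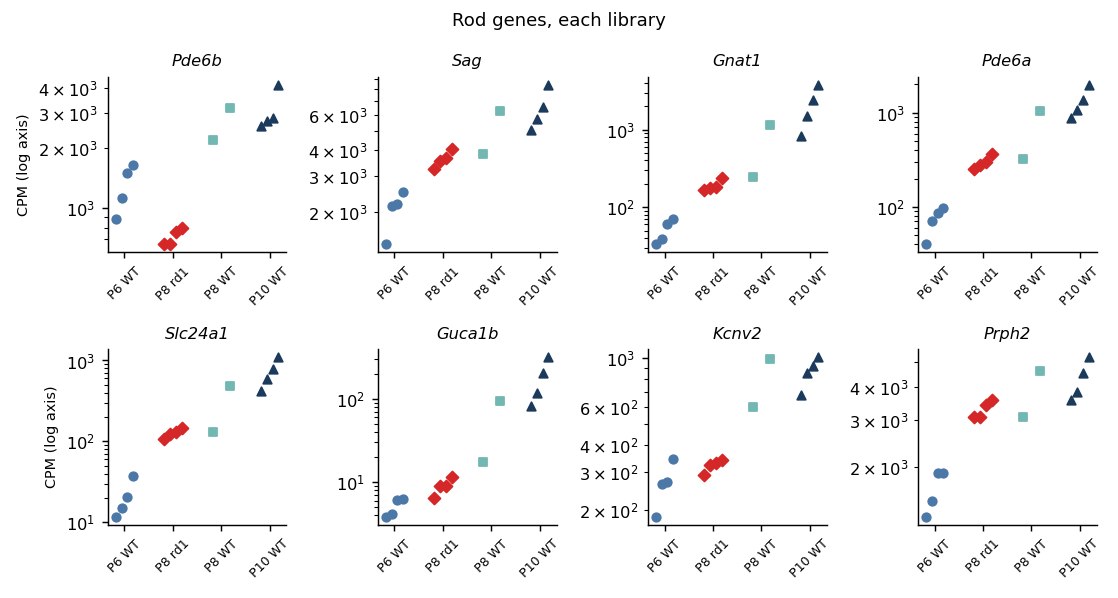
CPM per library on a log axis for selected rod genes in P6 WT, P8 rd1, P8 WT and P10 WT, with points sorted by value within a group. Gnat1 and Pde6a of P8 rd1 lie between the WT ages, Guca1b and Kcnv2 lie close to P6 WT, and Pde6b lies below every WT library.

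Outer segment genes that passed were higher than P6 WT or lower than P10 WT. Of 21 tested members, 12 were higher in P8 rd1 than in P6 WT and 0 lower, and 9 were lower than in P10 WT and 0 higher. The median log2 fold changes were 0.80 and -0.42. Over all genes, 5.27% were higher and 3.75% lower than P6 WT, and 7.98% were lower and 7.8% higher than P10 WT. Of all age genes that rise, 16.3% were between, 17.2% at the P10 level and 36.6% at the P6 level. Of the list's 12 age genes, 5 were between, 4 at the P10 level and 3 at the P6 level, with a median position of 0.58. The count above P6 WT was 6 without P6 WT replicate 3 and 6 without P8 rd1 replicate 4, and that below P10 WT was 5 without P8 rd1 replicate 2. Tmem237, a protein of the ciliary transition zone, was at the P10 level, with 154, 157, 150 and 179 CPM in P8 rd1, 65.2, 73.5, 55.2 and 90 CPM in P6 WT and 171, 169, 168 and 191 CPM in P10 WT. Its log2 fold change was 1.22 ± 0.15 over P6 WT (adjusted p = 0.000229) and -0.16 over P10 WT (95% interval -0.48 to 0.15). Rdh8, the retinol dehydrogenase of the outer segment, was counted there too (2.20 and -0.77), as was Prph2, the disc rim protein peripherin (1.05 and -0.42). The 95% intervals over P10 WT were -1.4 to -0.15 for Rdh8 and -0.85 to 0 for Prph2. Every P8 rd1 library of Prph2 (3090 to 3570 CPM) was below every P10 WT library (3590 to 5200 CPM). Rom1, the partner of Prph2 in the rim, was not an age gene and was higher than P6 WT by 0.67. That call was lost without any of 7 libraries (adjusted p up to 0.127, without P6 WT replicate 3). The matrix gene Impg1 was between (1.39 and -0.96), and so was the retinoid transporter gene Abca4 (1.4 and -0.89). The P10 WT call of Impg1 was lost without P8 rd1 replicate 2 (adjusted p = 0.0508) and that of Abca4 without any of 6 libraries (up to 0.0866, without P8 rd1 replicate 2).

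Crb1, which holds the adhesion belt between photoreceptors and Mueller glia, was 1 of the 3 members at the P6 level, with Nxnl1 (0.37 over P6 WT and -1.65 over P10 WT) and Rp1l1 (0.74 and -0.88). Rp1l1 narrowly missed the class between, with an adjusted p of 0.0514 over P6 WT and a position of 0.47. Its P8 rd1 libraries, at 541 to 561 CPM, were all above the 219 to 422 CPM of P6 WT. Crb1 was 212, 190, 228 and 213 CPM in P8 rd1, 262, 327, 214 and 331 CPM in P6 WT and 502, 589, 552 and 608 CPM in P10 WT, with 660 and 458 CPM in P8 WT. Its position of -0.35 lay on the far side of P6 WT. The log2 fold change was -1.46 ± 0.15 over P10 WT (adjusted p = 6.33e-05), -1.48 ± 0.21 over P8 WT (adjusted p = 0.000717) and -0.39 ± 0.15 over P6 WT (95% interval -0.71 to -0.06, adjusted p = 0.137).

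The rod factors Nrl, Crx and Nr2e3 showed no difference that passed, while other factors of the list did. Nrl, the master rod factor, was 2260, 2330, 2240 and 2260 CPM in P8 rd1, within the 1600 to 2530 CPM of P6 WT and the 2140 to 2650 CPM of P10 WT. Crx, which drives photoreceptor genes (0.35 over P6 WT and 0.20 over P10 WT), and Nr2e3, which represses cone genes in rods (0.19 and 0.43), passed no test either. Of 20 tested photoreceptor transcription factors, 4 were higher and 2 lower than P6 WT, and 2 were higher and 3 lower than P10 WT. Over all genes the shares were 5.27% and 3.75% against P6 WT, and 7.8% and 7.98% against P10 WT. Esrrb, an orphan receptor of rods, was between at 65.7, 89.4, 62.6 and 104 CPM in P8 rd1, against 10.8 to 27.1 in P6 WT and 187 to 419 in P10 WT (2.22 ± 0.31 and -1.80 ± 0.30). Otx2, which acts above Crx, falls with age and was counted at the P6 level (-0.42 and 0.62), a call lost without any of 6 libraries (adjusted p up to 0.0914, without P10 WT replicate 4). Prdm1, which favours photoreceptor over bipolar fate, was below P6 WT (-0.79, adjusted p = 0.0167) and did not pass against P10 WT (0.49, 95% interval 0.10 to 0.88). Rxrg, a nuclear receptor of cones and photoreceptor precursors, was counted at the P10 level, at 7.47, 13.1, 8.56 and 9.64 CPM in P8 rd1, 25.3 to 35.5 in P6 WT and 2.3 to 10.2 in P10 WT (-1.58 ± 0.33 over P6 WT, adjusted p = 0.012). Its difference from P10 WT missed the threshold at 0.83 (adjusted p = 0.128), with a 95% interval of 0.08 to 1.58 that leaves out 0.

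Genes of the ribbon synapse, the rod's output, that passed were higher than P6 WT or lower than P10 WT. Of 30 tested members, 9 were higher in P8 rd1 than in P6 WT, where 5.27% of all genes were. Lower than in P10 WT were 8, where 7.98% of all genes were, with 0 in the other directions. Of all age genes that rise, 16.3% were between. Of the list's 8 age genes 5 were between, 2 at the P6 level and 1 at the P10 level (median position 0.44). The count above P6 WT was 5 without P6 WT replicate 1, 5 without P6 WT replicate 3 and 4 without P8 rd1 replicate 4. Cabp4, the calcium-binding regulator of the synaptic calcium channel, was 28.1, 22.3, 26.4 and 27.6 CPM in P8 rd1, between 4.19 to 8.87 in P6 WT and 54.8 to 128 in P10 WT (1.98 ± 0.30 and -1.80 ± 0.29). Cacnb2, the channel's beta subunit, was counted at the P10 level (1.6 and -0.23, 95% interval of the latter -0.73 to 0.27). The active zone gene Rims2 (0.64 and -1.04) and the synaptic adhesion gene Lrit3 (0.88 and -1.49) were between, and each P6 WT call was lost without any of 3 libraries (adjusted p up to 0.0722, without P6 WT replicate 1, and 0.0825, without P6 WT replicate 3). In the cilium list, 1 of 30 tested genes was higher than P6 WT, and 5 were lower and 2 higher than P10 WT. The shares over all genes were 5.27%, 7.98% and 7.8%, in the same order. Rd3, which controls guanylate cyclase trafficking to the outer segment, was not an age gene and was 138, 118, 143 and 108 CPM in P8 rd1, against 226 to 324 in P10 WT (-1.17 ± 0.21, adjusted p = 0.00302) and 377 and 318 in P8 WT (-1.52, adjusted p = 0.00289). Rd3 shares 26.8% of its 31-base words, the stretches of 31 bases in its transcripts, with Gm26670, which was itself outside both ages. The small GTPase genes of ciliary transport Arl13b (-1.18) and Arl3 (-0.99) were below P10 WT, the latter call being lost without P8 rd1 replicate 2 (adjusted p = 0.0515).

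The rule for naming genes also gave genes outside these lists. At the P6 level among rising genes stood Pdzph1, at 3.55, 3.8, 2.55 and 4.67 CPM in P8 rd1, 0.73 to 3.13 in P6 WT and 27 to 95.5 in P10 WT (-3.93 ± 0.44 over P10 WT, adjusted p = 0.000173). The water channel gene Aqp1 (-2.48) and the potassium channel subunit gene Kcng4 (-2.73) were of the same class. Between the ages lay Cds1, an enzyme of phosphatidylinositol synthesis, with 24.2, 19.4, 23.1 and 27 CPM in P8 rd1, 3.83 to 7.13 in P6 WT and 53.1 to 119 in P10 WT (2.28 ± 0.28 and -1.90 ± 0.26). Drd4, the dopamine receptor of photoreceptors, was between too (2.75 and -3.55), although its P6 WT call was lost without any of 7 libraries (adjusted p up to 0.088, without P6 WT replicate 3). At the P10 level stood Arg2, mitochondrial arginase, at 11.1, 7.99, 9.26 and 10.7 CPM in P8 rd1, 1.45 to 2.03 in P6 WT and 10.9 to 18.5 in P10 WT (2.45 ± 0.23 over P6 WT, adjusted p = 2.9e-05).

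Many proliferation genes were lower in P8 rd1 than in P6 WT. Of 35 tested progenitor and proliferation genes, 23 were lower in P8 rd1 than in P6 WT and 0 higher, while 6 were higher and 2 lower than in P10 WT. The median log2 fold changes were -1.52 and 0.55. Over all genes, 3.75% were lower and 5.27% higher than P6 WT, and 7.8% were higher and 7.98% lower than P10 WT. Of all age genes that fall, 18.2% were at the P10 level. Of the list's 26 age genes, 16 were at the P10 level, 3 between, 2 at the P6 level and 5 unresolved. Their median position was 0.70 (0.54 to 0.83 by rd1 library, 1.03 and 0.81 in P8 WT). The count above P10 WT was 3 without any of P10 WT replicate 4 and P8 rd1 replicates 2 and 4. The list is a marker set for dividing cells that can pass the gate with rods. Its summed level ran from 908 to 1210 CPM in P8 rd1, 1450 to 2730 in P6 WT, 597 to 1050 in P8 WT and 394 to 1120 in P10 WT, with 0 members at 0 in all these libraries.

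Mki67, the proliferation antigen, was 9.75, 4.45, 6.56 and 4.64 CPM in P8 rd1, 95.6, 59.6, 183 and 45.5 CPM in P6 WT and 5.54, 4.94, 4.81 and 0.538 CPM in P10 WT. All P8 rd1 libraries were below all P6 WT libraries and overlapped P10 WT. The log2 fold change over P6 WT was -3.87 ± 0.49 (adjusted p = 0.000717), and over P10 WT 0.65 ± 0.54 (95% interval -0.50 to 1.81). Top2a, the topoisomerase of dividing cells (-2.80 over P6 WT, 0.56 over P10 WT), Rrm2, a ribonucleotide reductase subunit (-3.34 and 0.60), and Pbk, a mitotic kinase (-3.61 and 1.34), were at the P10 level as well. So were the progenitor genes Fgf15 (-3.02 and 1.44) and Foxn4 (-2.89 and 1.29).

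Other genes that fall with age were between or at the P6 level. Notch1, the receptor that holds progenitors undifferentiated, was 64.2, 91.6, 87.2 and 55.4 CPM in P8 rd1, 165 to 270 in P6 WT and 7.33 to 36.9 in P10 WT. It was between, at -1.45 ± 0.36 and 1.61 ± 0.37, and its P6 WT call was lost without any of 5 libraries (adjusted p up to 0.0994, without P8 rd1 replicate 4). The Notch ligand gene Dll3 (-1.56 and 2.09) and the zinc finger gene Insm2 (-1.57 and 3.44) were between too. Their P6 WT calls were lost without any of 3 libraries (adjusted p up to 0.0636) and of 2 (up to 0.0672), in each case highest without P8 rd1 replicate 4. Robo3, an axon guidance receptor gene, was at the P6 level, with 38.8, 42.9, 41.5 and 21.2 CPM in P8 rd1, 38.7 to 98.1 in P6 WT and 1.97 to 5.95 in P10 WT, and 4.6 and 26.7 CPM in P8 WT. Its log2 fold change was 3.02 ± 0.32 over P10 WT (adjusted p = 9.34e-05) and -0.80 over P6 WT (95% interval -1.43 to -0.16). Epha8, an ephrin receptor gene, was also counted there, at 102, 156, 85.7 and 59.5 CPM in P8 rd1, 246 to 375 in P6 WT and 1 to 17.7 in P10 WT, although every rd1 library was below every P6 WT library (-1.54, 95% interval -2.56 to -0.51, adjusted p = 0.0687).

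The count of immature neuron genes that passed depended on the libraries used. Of 28 tested, 2 were lower in P8 rd1 than in P6 WT, where 3.75% of all genes were. Higher than in P10 WT were 4, where 7.8% of all genes were. Of the list's 13 age genes 7 were unresolved, against 46% of all age genes that fall. The count below P6 WT was 13 without both libraries that stand apart and 12 without P10 WT replicate 5. It was 4 without P6 WT replicate 2 or P10 WT replicate 2. It was 1 without P6 WT replicate 1 or 3, P10 WT replicate 3 or 4 or P8 rd1 replicate 2, 3 or 4. The count above P10 WT was 5 without both libraries that stand apart. It was 1 without P10 WT replicate 3 or 4 or any P8 rd1 library. Sox11, a neuronal differentiation factor, was at the P10 level (-2.00 and 1.23), and Igfbpl1, a gene of newborn neurons, was at the P6 level, with 10, 4.54, 6.44 and 7.17 CPM in P8 rd1, 3.4 to 8.19 in P6 WT and 0.117 to 2.27 in P10 WT (2.79 ± 0.57 over P10 WT, adjusted p = 0.00669). The tubulin regulator gene Stmn1 was counted at the P6 level (-1.04 and 1.24) and the neuronal tubulin gene Tubb3 at the P10 level (-0.78 and 0.49). The P10 WT call of the former was lost without any of 6 libraries (adjusted p up to 0.097, without P10 WT replicate 4), and the P6 WT call of the latter without any of 7 (up to 0.154, without P8 rd1 replicate 4).

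Among 28 tested cell death genes, 8 were higher in P8 rd1 than in P10 WT, where 7.8% of all genes were. Lower than P10 WT was 1 and higher than P6 WT was 1, against 7.98% and 5.27% of all genes. In WT itself 11 of the 28 were lower and 1 higher at P10 than at P6, with a median log2 fold change of -0.38. Without both libraries that stand apart, 8 were higher and 2 lower than P10 WT. The higher count was 5 without any of P10 WT replicates 3 and 4 and P8 rd1 replicate 2. Trp53, the tumour suppressor p53, was 0.58 above P10 WT (adjusted p = 0.00243) and -0.21 from P6 WT. Bik, a death-promoting relative of Bcl2, was at the P6 level near 1 CPM. Parp2, a DNA damage sensor, was the member higher than both ages, at 80.1, 71.1, 78.3 and 71.3 CPM in P8 rd1, 33.1 to 46.9 in P6 WT, 45 to 53.2 in P10 WT and 40.9 and 38.5 in P8 WT. Its log2 fold changes were 0.89 ± 0.11 (adjusted p = 0.000315), 0.61 ± 0.11 (adjusted p = 0.00324) and, over P8 WT, 0.86 (adjusted p = 0.00757).

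Of 28 tested genes of the unfolded protein and integrated stress responses, 2 were higher than P6 WT, and 5 were higher and 1 lower than P10 WT, against 5.27%, 7.8% and 7.98% of all genes. Trib3, a target of that response, was 8.52, 11.4, 10.9 and 8.92 CPM in P8 rd1 and 2.14 to 5.24 CPM in P6 WT (1.5 ± 0.30, adjusted p = 0.00874), and overlapped P10 WT at 5.3 to 9.06 CPM. Ddit3, which encodes CHOP, was 0.82 above P6 WT (adjusted p = 0.0101) and 0.44 from P10 WT. Psat1, a serine synthesis enzyme gene, was at the P6 level, at 41, 35, 38.2 and 36.9 CPM in P8 rd1, 39.1 to 61.6 in P6 WT and 7.6 to 24.3 in P10 WT (1.29 ± 0.24 over P10 WT, adjusted p = 0.00378). Of 31 oxidative defence genes, 1 was higher and 1 lower than each WT age, which is no more than the share over all genes. Slc7a11, the cystine importer gene that feeds glutathione synthesis, stood above both, at 36.3, 24.4, 29.1 and 28.1 CPM in P8 rd1, 7.92 to 14.7 in P6 WT, 6.76 to 10.7 in P10 WT and 7.65 and 8.25 in P8 WT. Its log2 fold change was 1.46 ± 0.22 over P6 WT (adjusted p = 0.00134), 1.81 ± 0.22 over P10 WT (adjusted p = 0.00022) and 1.83 over P8 WT (adjusted p = 0.00158).

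Most genes of energy metabolism were without a call, as were most genes tested. Among all genes, 5.27% were higher and 3.75% lower than P6 WT, and 7.98% were lower and 7.8% higher than P10 WT. Of 28 tested glycolysis and lactate genes, 3 were higher than P6 WT, and 4 were lower and 2 higher than P10 WT. Slc16a1, a lactate transporter gene, was between at 39.7, 30.5, 27.2 and 39.8 CPM in P8 rd1, 7.2 to 18.3 in P6 WT and 81 to 96 in P10 WT (1.47 ± 0.22 and -1.38 ± 0.21). Hk1, the first enzyme of glycolysis, was between (1.02 and -0.77, the latter call being lost without any of 3 libraries, adjusted p up to 0.0659 without P8 rd1 replicate 2), and Eno2, the neuronal enolase, was at the P10 level (0.82 and -0.40). Pfkfb2, which makes an activator of glycolysis, was at the P6 level, at 147, 175, 189 and 189 CPM against 377 to 889 in P10 WT (-1.86 ± 0.29, adjusted p = 0.00145). In the tricarboxylic acid cycle 1 of 26 genes was higher than P6 WT, and 3 were higher and 2 lower than P10 WT. Of 69 oxidative phosphorylation genes, 1 was higher and 1 lower than P6 WT, and 1 lower than P10 WT.

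Sdhc, a membrane subunit of succinate dehydrogenase, was higher than both ages, at 117, 102, 118 and 111 CPM against 53.3 to 73.1 in P6 WT, 44.9 to 78.3 in P10 WT and 62.3 and 78.6 in P8 WT (0.80, 0.86 and 0.62). Most cholesterol synthesis genes that passed were lower, 3 of 22 below P6 WT and 4 below P10 WT with 1 above it. Acat2, an early enzyme of the pathway, was 18.2 to 21.7 CPM in P8 rd1 and 28.3 to 39.6 in P6 WT (-0.72 ± 0.12, adjusted p = 0.0034). Fdft1, squalene synthase, fell by 0.87 against P10 WT (adjusted p = 0.00369). Acat2 shares 43.7% of its 31-base words with Acat3, and 31.9% of those of Fdft1 are present in other genes. Of 22 fatty acid genes 0 passed against P6 WT, and 2 were higher and 1 lower than P10 WT. Of 29 calcium handling genes 2 were higher than P6 WT, and 1 was higher and 4 lower than P10 WT. All genes tested gave 5.27% higher and 3.75% lower than P6 WT, and 7.8% higher and 7.98% lower than P10 WT. The kinase gene Camk2d was 0.75 above P6 WT (adjusted p = 0.00209) and the plasma membrane calcium pump gene Atp2b1 fell by 0.51 against P10 WT (adjusted p = 0.00255).

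Over all autosomal genes, 196 were higher in P8 rd1 than at both WT ages (1.21%) and 188 were lower (1.16%), 384 in all (2.38%), of which 36 were age genes. Among those 36, 17 lay past the P10 side and 19 past the P6 side. The higher count was 125 without P8 rd1 replicate 2 and 116 without P8 rd1 replicate 4. These counts rose to 257 and 239 without both libraries that stand apart. By symbol, 73 of the higher genes (37.2%) and 77 of the lower ones (41%) were predicted genes, clones or pseudogenes, against 17.4% of all genes tested.

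Lower than both ages, several genes were near or at 0 in rd1. Tnfrsf8, which encodes the immune receptor CD30 (chromosome 4, 145267137 to 145315164), had 0 counts in all 4 P8 rd1 libraries, against 8.88, 8.27, 6.32 and 16.5 CPM in P6 WT, 34.9, 27.5, 23.8 and 43.4 CPM in P10 WT and 30.7 and 18.2 CPM in P8 WT. Against a floor of 3 counts per library (0.24 CPM), it was at least 41.7-fold lower than in P6 WT and at least 135-fold lower than in P10 WT. Col17a1, a collagen of epithelial anchoring, was 1.89, 2.08, 0.569 and 1.99 CPM in P8 rd1, 50.2 to 113 in P6 WT and 32.3 to 53.2 in P10 WT (-5.43 ± 0.34 and -4.66 ± 0.34). Eps8l1, an actin regulator gene, was 0.73 to 1.29 CPM against 13.7 to 38.3 and 22.3 to 36 (-4.43 and -4.70). In Fam205a1 all rd1 libraries were at 0, at least 20.6-fold below P6 WT and 5.48-fold below P10 WT, and in Fam205c they were at 0 to 0.0495 CPM against 8.96 to 20.8 in P6 WT and 4.54 to 8.01 in P10 WT.

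The mitotic checkpoint gene Bub1b was low in rd1 apart from the other proliferation genes. It was 5.28, 1.65, 1.6 and 2.36 CPM in P8 rd1, 47, 55.6, 50.4 and 84.3 CPM in P6 WT, 24.1, 32.3, 36.4 and 38 CPM in P10 WT and 48.1 and 32.9 CPM in P8 WT. In the same P10 WT libraries Mki67 was at 0.538 to 5.54 CPM. Bub1b differed on the log2 scale by -4.4 ± 0.33 over P6 WT (adjusted p = 6.25e-06), -3.64 ± 0.33 over P10 WT (adjusted p = 2.45e-05) and -3.97 over P8 WT (adjusted p = 2.63e-05). Pcna, the sliding clamp of DNA replication, was lower than both as well, at 25.8 to 31.4 CPM against 52.4 to 79.4 and 49.8 to 55.4 (-1.17 and -0.96).

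Higher than both ages stood Klhl33, a kelch-family gene, at 46.7, 88, 57.7 and 50.4 CPM in P8 rd1, 3.98 to 9.01 in P6 WT, 0.323 to 2.38 in P10 WT and 1.5 and 4.9 in P8 WT (3.15 ± 0.35 and 5.61 ± 0.41). Sfrp4, which encodes a secreted Wnt modulator, was 6.94 to 12.9 CPM against 0.612 to 2.25 and 0.208 to 0.651 (2.91 and 4.45). The transcription factor gene Sox30 was 6.11 to 10.8 CPM against 0.616 to 1.02 and 0.71 to 1.27 (3.35 and 3.02), and the homeobox gene Obox6 was 8.07 to 11.5 CPM against 0.488 to 1.12 and 1.15 to 1.8 (3.69 and 2.79). The calpain gene Capn11 was 9.44, 21.7, 14.6 and 24.2 CPM against 0.0709 to 4.69 and 0.265 to 2.91 (3.62 and 3.82), and its P6 WT call was lost without P8 rd1 replicate 4 (adjusted p = 0.0543). Fam69a, on chromosome 5 in the same 10 Mb as Pde6b, was 88.7 to 106 CPM against 10.6 to 23.7 and 7.33 to 17.2 (2.61 and 2.73), and it shares 31.9% of its 31-base words with Rpl5. Masp2, a complement protease gene, was 14.4, 13.2, 17.2 and 12.8 CPM against 0.724 to 1.19 and 0.217 to 2.13 (4.04 and 3.75). It overlaps Tardbp on the opposite strand and shares 53.3% of its 31-base words with it, so its value is uncertain.

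Several genes outside both ages have a near-identical copy, and in some pairs the copies moved in opposite directions. The sequences of such copies are shown because reads can be told apart only where they differ. Ahcy, the enzyme that breaks down S-adenosylhomocysteine (chromosome 2, 155059310 to 155074497), and Gm4737 (chromosome 16, 46152997 to 46155077) differ at 4 of 1296 coding bases (99.7% identical). Coding bases 420 to 479 of each follow, counted from the start codon, with the bases that differ in capitals.
Ahcy: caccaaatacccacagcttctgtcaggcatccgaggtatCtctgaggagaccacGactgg
Gm4737: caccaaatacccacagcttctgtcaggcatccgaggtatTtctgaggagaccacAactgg
Ahcy was 2.94, 2.41, 3.92 and 3.38 CPM in P8 rd1, 43.5, 38.2, 35.4 and 26 CPM in P6 WT and 39.6, 29.1, 36.6 and 36 CPM in P10 WT. Gm4737 was 42.2, 33.3, 37.6 and 34.8 CPM in P8 rd1, 0.287 CPM in P6 WT replicate 1 and 0 in the 7 other P6 WT and P10 WT libraries. Their sum had means of 40.1 CPM in P8 rd1, 35.8 in P6 WT, 38.6 in P8 WT and 35.3 in P10 WT, so the pair changed places while its total stayed near the WT level.

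Amd1 and Amd2, copies of the S-adenosylmethionine decarboxylase gene of polyamine synthesis on chromosome 10, differ at 1 of 1002 coding bases (99.9% identical). Coding bases 742 to 801 are shown in the same way.
Amd1: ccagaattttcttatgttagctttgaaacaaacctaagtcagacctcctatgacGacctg
Amd2: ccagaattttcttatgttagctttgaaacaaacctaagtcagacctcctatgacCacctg
Amd2 was 9.18, 9.1, 11.5 and 7.85 CPM in P8 rd1 and at most 0.398 CPM in any P6 WT or P10 WT library, and Amd1 had means of 71.2 CPM in P8 rd1, 72.9 in P6 WT and 110 in P10 WT. The sum was 80.6 CPM in P8 rd1, between 73 in P6 WT and 110 in P10 WT. Amd1 thus stood near its P6 WT level, and only Amd2 was outside both ages. In 2 further pairs, chosen after their values were seen, 1 copy was low and the other high, as for Ahcy and Gm4737. Csnk2a1, a casein kinase subunit gene, had a mean of 132 CPM and its copy Gm10031 55.1 CPM in P8 rd1, against 200 and 0 in P6 WT and 180 and 0.367 in P10 WT, with sums of 187, 200 and 180. The ribosomal protein gene Rpl26 had 65.6 CPM and Gm15772 141 CPM in P8 rd1, against 231 and 0.0925 in P6 WT and 173 and 0.0411 in P10 WT, with sums of 207, 231 and 173. In the Duxbl family of double homeobox genes, Duxbl1 was 0, 0.39, 0 and 0 CPM in P8 rd1 against 19.2 to 38.3 in P6 WT and 63.9 to 90.3 in P10 WT. Summed over Duxbl1, Duxbl2 and Duxbl3, the family had means of 44.5 CPM in P8 rd1, 48.5 in P6 WT, 105 in P8 WT and 154 in P10 WT. Zfp729a, a zinc finger gene with the copy Zfp729b, was unlike these pairs, since their sum was 106 CPM in P8 rd1 against 39.6 in P6 WT and 44.1 in P10 WT.

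**Figure D4:**
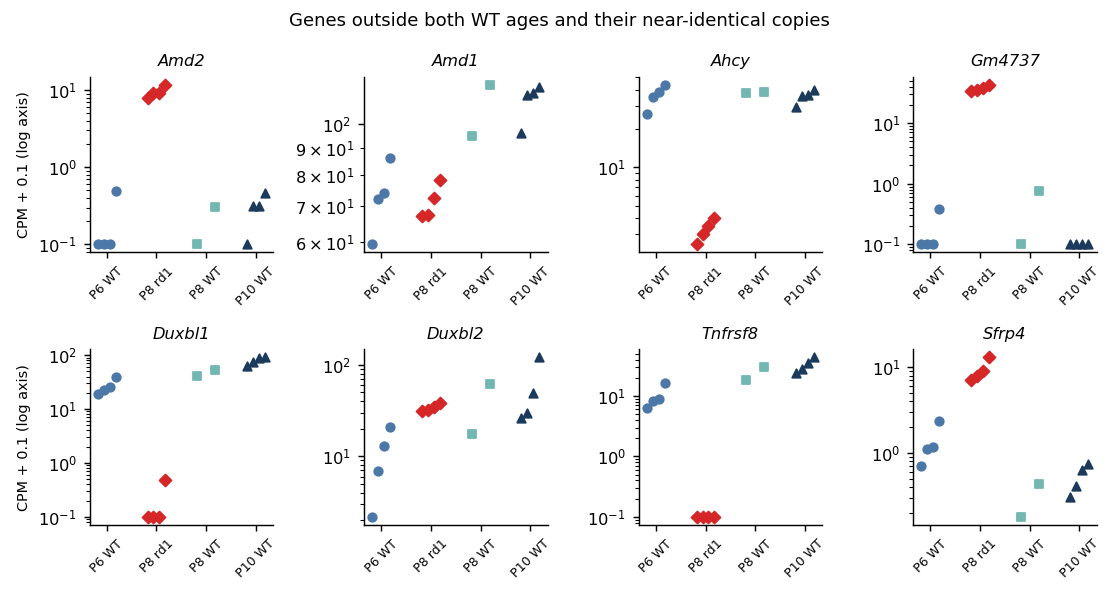
CPM plus 0.1 per library on a log axis for Amd2, Ahcy, Gm4737, Duxbl1, Tnfrsf8 and Sfrp4, which lie outside both WT ages, and for the copies Amd1 and Duxbl2, with points sorted within a group. The P8 rd1 libraries lie apart from every P6 WT and P10 WT library in the former 6 genes, while Amd1 of P8 rd1 overlaps P6 WT.

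Such sharing was frequent among the outside genes. At least 50% of the 31-base words of a gene's transcripts were present in another gene for 48 of 194 higher genes (24.7%) and 56 of 188 lower ones (29.8%), against 4.13% of age genes and 6.33% of all genes tested. With the counts of such genes summed and tested as 1, 156 were higher and 137 lower, and 150 of the 196 and 133 of the 188 were still called. For genes with copies, the division of reads between them rests on the sequence differences alone and is uncertain.

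The outside genes were also unevenly spread over the genome. Over the 255 windows of 10 Mb with a tested gene, 109 windows held none and 20 windows with at least 5 held 172 of the 384. On chromosome 2 from 170 to 180 Mb, 24 of 76 tested genes (31.6%) were outside, all lower in rd1, and 21 of the 24 shared at least 50% of their words with another gene. By symbol they are predicted genes or clones. On chromosome 4 from 40 to 50 Mb, which holds Fam205a1 and Fam205c, 22 of 143 (15.4%) were outside, 21 of them lower and 15 with shared words. On the same chromosome from 140 to 150 Mb, which holds Tnfrsf8 and Masp2, 13 of 116 (11.2%) were outside, 8 higher and 5 lower and 3 with shared words. Within 5 Mb on either side of Pde6b, 8 of 105 genes (7.62%) were outside, Pde6b included, within 10 Mb 12 of 217 (5.53%) and within 20 Mb 15 of 398 (3.77%), against 2.38% of all genes. The labels do not give the strain of either line, and its part in these differences was not tested.

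Markers of other retinal cells were read in every group. Of 14 bipolar cell markers, 7 were higher in P8 rd1 than in P6 WT and 1 lower than in P10 WT, against 5.27% and 7.98% of all genes. At the P10 level were 6 of the 8 age genes among these markers, against 17.2% of all age genes that rise. Pcp2, a marker of ON bipolar cells, was 66, 41.9, 52.6 and 44.5 CPM in P8 rd1, 8 to 22.3 in P6 WT and 99, 70.6, 78 and 14.4 in P10 WT, the last in the replicate that stands apart. It shares 46.6% of its 31-base words with Pet100. Without both libraries that stand apart, 9 were higher than P6 WT and 8 lower than P10 WT. The count above P6 WT was 4 without P6 WT replicate 1, 2 or 3 or P8 rd1 replicate 1, 3 or 4. The summed bipolar level was 943 to 1660 CPM in P8 rd1, 615 to 1070 in P6 WT, 642 to 1270 in P8 WT and 459 to 2450 in P10 WT. The part of bipolar cell RNA in the synapse genes was not tested.

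Cone markers were mixed. Of 12, 2 were higher and 2 lower than P6 WT, against 5.27% and 3.75% of all genes. Against P10 WT 2 were higher and 3 lower, where 7.8% and 7.98% of all genes were. Without both libraries that stand apart, 7 were lower than P10 WT. The cone markers summed to 1570 to 1730 CPM in P8 rd1, 1420 to 2020 in P6 WT, 1010 to 1340 in P8 WT and 772 to 1420 in P10 WT. Gngt2, the cone transducin gamma subunit, was at the P6 level, at 463, 458, 407 and 418 CPM in P8 rd1, 304 to 446 in P6 WT, 24.7 to 101 in P10 WT and 87.3 and 211 in P8 WT (2.88 ± 0.28 over P10 WT, adjusted p = 5.95e-05, and 0.33 over P6 WT, 95% interval -0.27 to 0.93). Pde6c, the cone phosphodiesterase, and Kcne2, a potassium channel subunit gene, were counted at the P6 level with positions of -0.89 and -0.56. Pde6c was 8.06 to 14.6 CPM in P8 rd1, below the 19.7 to 33.7 CPM of P6 WT and the 21.8 to 94.3 CPM of P10 WT, and its difference from P6 WT did not pass (-1.03, adjusted p = 0.118).

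Of 15 Mueller glia markers, 3 were higher and 2 lower than P6 WT, and 3 lower than P10 WT, with sums of 588 to 1090 CPM in P8 rd1, 768 to 1690 in P6 WT, 456 to 595 in P8 WT and 338 to 1270 in P10 WT. Abca8a, a transporter gene of glia, was 29.2, 6.37, 27.8 and 26.3 CPM in P8 rd1 and 2.05 to 4.95 in P6 WT (2.72 ± 0.43, adjusted p = 0.00207). Amacrine and horizontal cell markers had 1 of 15 lower than P6 WT, and ganglion cell markers 1 of 11 higher than each age. Microglia and macrophage markers had 1 of 15 lower than each age. Vessel markers had 1 of 14 and retinal pigment epithelium markers 1 of 9 lower than P10 WT. Shares over all genes were 5.27% higher and 3.75% lower than P6 WT, and 7.8% higher and 7.98% lower than P10 WT. A count of 1 in lists this short is therefore not read as a result about these cells. The amacrine and horizontal sum was 458 to 1100 CPM in P8 rd1, 699 to 1590 in P6 WT and 254 to 930 in P10 WT, and vessel markers summed to 108 to 362, 161 to 429 and 56.2 to 505 CPM. Immediate early genes, which dissociation can raise, had 3 of 20 lower than P6 WT and 2 higher than P10 WT, and P8 rd1 sums of 735 to 1010 CPM. No marker of any list was at 0 in all libraries. The part of these cells in the placement was not tested.

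**Figure D5:**
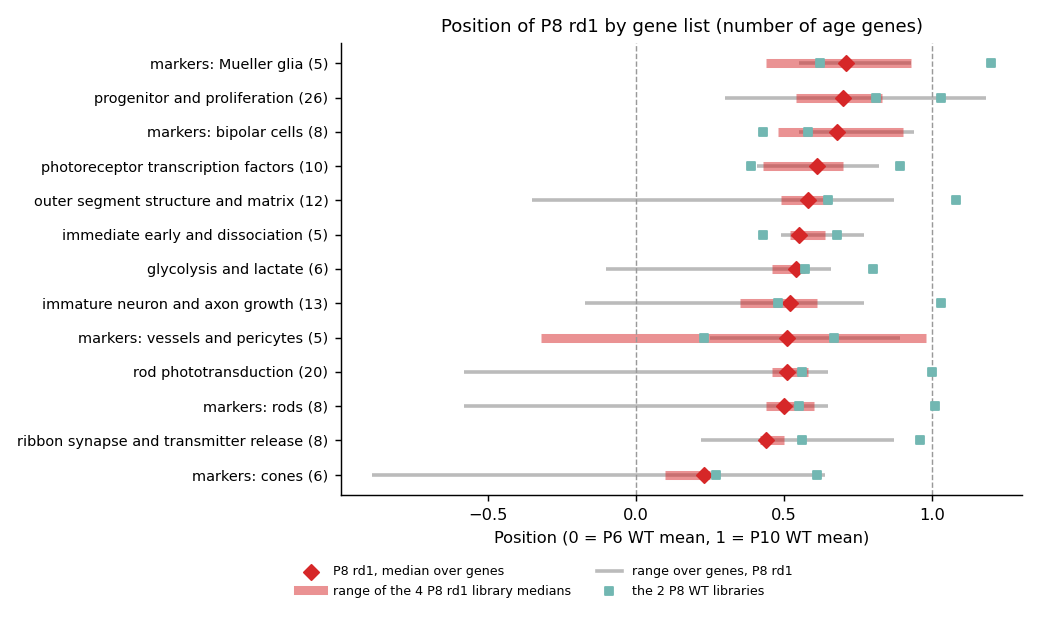
Median position of P8 rd1 on the scale from P6 WT (0) to P10 WT (1) for gene lists with at least 5 age genes, with the range over genes, the range of the 4 rd1 library medians and the P8 WT libraries. Cone markers have the lowest median at 0.23 and Mueller glia markers the highest at 0.71, and the rd1 library medians of phototransduction genes run from 0.46 to 0.58.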

How the data were processed

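Poly(A) RNA of sorted rods was sequenced in 28 libraries, and the authors deposited expected counts (estimated counts) per gene, for which the submitters' processing notes name the build GRCm38.p5 and the tools edgeR 3.32.1 and kallisto 0.42.4. The roles of these tools are not given in the sources used here. The deposited table holds 45594 genes, and 1 further column, which matches no sample title, was left out. Groups were read from the sample titles.

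Counts were rounded to whole numbers. The 12 libraries of P6 WT, P8 rd1 and P10 WT were fitted together with edgeR 4.0.16 in R 4.3.3 (filterByExpr, TMM scaling, quasi-likelihood test, Benjamini-Hochberg adjustment over all 16838 genes tested, of which 16145 are autosomal), with a threshold of 0.05. Every adjusted p is from this test, or for P8 WT from the same test on 14 libraries. CPM values are not TMM-scaled, so their ratios differ slightly from the fitted fold changes. The ± values are standard errors on the log2 scale, with 4 libraries a group except for P8 WT, which has 2. Positions use log2 CPM with a prior count of 2. Shared sequence was measured with 31-base words of the GENCODE vM21 transcripts. The scripts were tested on simulated data.

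The genes and the 26 lists were chosen with earlier results of these data known. The rule named Pde6b, up to 8 genes per class and direction (average log2 CPM 1 or more, libraries apart from those of the WT group they differ from), and up to 4 per list by p. Predicted genes, pseudogenes and clones were only counted, and a pattern for clone symbols was added after the data were seen. Gnb1, Gngt1, Pde6g, Cngb1, Sag, Rcvrn, Prph2, Rom1, Abca4, Nrl, Crx, Nr2e3, Otx2, other list members beyond the 4, Gm4737 and the other copies fall outside that rule. Alternatives were RLE factors, DESeq2 1.42.0, limma 3.58.1 (voom), other filters, a minimum fold change, a replicate block and leaving out each library. Results for some genes are not reported here.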

Additional observations from a re-analysis of the deposited data

Results flagged for a closer look

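Among 396 sets of 4 libraries, 23 held 1 library far from the other 3 (a gap above 0.829 of the whole range), and chance gives about 1 in 20. No cause was tested.

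P10 WT replicate 5 was the library concerned in 7 cases. Pde6b was 4140 CPM there against 2580 to 2840, and Tmem237 was 191 CPM against 168 to 171. Mki67 was 0.538 CPM against 4.81 to 5.54, Fam69a 7.33 CPM against 16.2 to 17.2, and Lrtm1, a leucine-rich repeat membrane protein gene, 15.6 CPM against 75 to 80.2. Immediate early genes summed to 2050 CPM against 527 to 619, and ganglion cell markers to 50.8 CPM against 122 to 131. In P6 WT replicate 1 immediate early genes summed to 1900 CPM against 771 to 882, and Gm4737 was 0.287 CPM against 0.

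In P8 rd1 replicate 2, Abca8a was 6.37 CPM against 26.3 to 29.2, Insm2 24.2 CPM against 12 to 13.8, C2cd4b 3.47 CPM against 1.53 to 1.65 and Duxbl1 0.39 CPM against 0. In other P8 rd1 libraries, Pcna was 31.4 CPM in replicate 1 against 25.8 to 26.7, Col17a1 0.569 CPM in replicate 3 against 1.89 to 2.08, and Rims2 113 CPM in replicate 4 against 105 in the other 3.

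In P6 WT replicate 4, Amd2 was 0.398 CPM against 0, Aqp1 5.23 CPM against 2.33 to 2.68 and Scgn, a bipolar cell marker, 16.7 CPM against 10.4 to 10.8. In P6 WT replicate 3, Capn11 was 4.69 CPM against 0.0709 to 0.696 and Rom1 889 CPM against 1110 to 1130. Eps8l1 was 36 CPM in P10 WT replicate 4 against 22.3 to 23.9, and Fam205c 8.01 CPM in P10 WT replicate 3 against 4.54 to 4.86.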

How the results depend on the processing

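With limma-voom, 2618 genes differed from P6 WT and 4905 from P10 WT, 424 age genes were between and 359 unresolved, and 443 genes were higher and 364 lower than both ages. DESeq2 placed 329 age genes between, and it shifted the median log2 fold change of all genes to -0.102 over P6 WT. With an absolute log2 fold change of at least 1, the WT ages differed in 2095 genes, rd1 differed from P6 WT in 723 and from P10 WT in 1108, 80 were between, and 110 were higher and 122 lower than both. Without both libraries that stand apart 473 were unresolved. The comparison with P8 WT gave 988 genes with DESeq2 and 991 with limma-voom.

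Leaving out 1 library at a time gave 715 to 2130 genes over P6 WT and 1381 to 2903 over P10 WT. It gave 206 to 561 age genes at the P10 level, 88 to 300 between, 23 to 37 outside and 552 to 1193 unresolved, and 116 to 239 genes higher than both. The comparison with P8 WT ran from 135 to 443 genes, where a lone P8 WT library is assumed to vary like the other groups. With the replicate block 483 age genes were unresolved, 2164 genes differed from P6 WT and 2321 from P10 WT. Equal replicate numbers did not pair the libraries, since their deviations correlated at -0.311 to 0.278 over 10 pairs. The median position was 0.41 to 0.50 under every alternative run. Of 3904 values of named genes under alternatives, 3710 kept direction and side of the threshold, 194 lost the call and 0 reversed. The call of Pde6b against P6 WT was kept in 12 of 24. The cause of these changes was not tested. With 4 libraries a group and 9 residual degrees of freedom, small differences cannot be placed at either age.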
